A study of Mus musculus with 2 samples.

Results

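Cytotoxic effector CD8 cells were taken from single-cell RNA sequencing of sorted TCRβ+ T cells, by the transcripts each cell held. UMIs (unique molecular identifiers) count captured transcripts, and a cell was kept if at least 500 genes were seen in it and mitochondrial transcripts made up 10% of its UMIs or less. It was called a CD8 cell with 1 or more UMIs of Cd3d, Cd3e and Cd3g (chains of the T cell receptor complex), 2 or more UMIs of the co-receptor genes Cd8a and Cd8b1, and no Cd4 UMI. It was called an effector cell when Gzma, Gzmb, Gzmk, Klrg1 and Cx3cr1 summed to 2 or more UMIs. The rule found 511 effector cells among 4718 CD8 cells and 13769 kept cells, with 54 from the WT mouse and 457 from the DKO-severe mouse. Because those 5 genes and the CD3, CD8 and Cd4 genes chose the cells, their values below are a description and support nothing.

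Cytotoxic CD8 T cells kill a target cell by releasing granules in which perforin opens the target's membrane and granzymes, a family of serine proteases, enter and cut proteins inside. Naive CD8 cells, which recirculate through lymph nodes with the homing gene Ccr7 and the transcription factors encoded by Tcf7 and Lef1, carry few granzymes until they meet antigen. Granzyme A and granzyme B are the classical killer proteases, whereas Gzmk marks CD8 cells that are often less committed to killing, and Klrg1 and Cx3cr1 mark differentiated effectors of blood and spleen.

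The mice were 14 weeks old, 1 per genotype, and spleen, cervical and inguinal lymph nodes were pooled in each. Both carried Foxp3Cre, a Cre recombinase made where the regulatory T (Treg) cell gene Foxp3 is expressed. In the DKO-severe mouse (Foxp3-Cre Tet2/3 fl/fl) Cre acted on floxed Tet2 and Tet3, which encode enzymes that oxidise methylated cytosine in DNA. The severe class was defined by a high leukocyte number in spleen and peripheral lymph nodes. The study asked how this loss in Treg cells reached bystander T cells, CD8 cells included, and it described the Foxp3Cre driver as leaky. With 1 mouse per genotype there is no replicate, the genotype cannot be told apart from the mouse, and no test between genotypes was made. All intervals below are exact 95% intervals that cover counting error only.

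The files held 7189 WT and 7161 DKO-severe barcodes, with 0 shared, and 7004 and 6765 cells were kept. Sequencing depth differed, with a median of 5688 UMIs per kept WT cell and 8312 per kept DKO-severe cell. The effector cells went the other way, with 6743.5 in WT and 5773 in DKO-severe, against 6375 and 10351 in the other CD8 cells. Over all effector cells there were 474873 WT and 3499617 DKO-severe UMIs, so that WT values are far less precise. The deleted genes did not check the genotype labels in these cells, in which Cre is not meant to act and a count of 3′ ends need not see the floxed exons. Tet2 stood at 71.6 counts per 1000000 UMIs (CPM) in WT and 49.1 in DKO-severe effector cells, and Tet3 at 65.3 and 64.9.

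Genes outside the rule were checked in the effector cells. Ccl5, a chemokine gene of effector and memory cells that the rule did not use, was detected in 455 of 457 DKO-severe effector cells and in 40 of 54 WT ones. The granule membrane gene Nkg7 was detected in 455 and 52 cells, and a T cell receptor β constant gene (Trbc1 or Trbc2) in 455 and 53. CD8 cells with no effector UMI also held Ccl5 (1864 CPM in DKO-severe, 391 in WT) and Nkg7 (662 and 489 CPM). Detection of these genes therefore does not by itself show that a cell is a cytotoxic effector. Ncr1, a defining gene of natural killer cells, was found in 1 WT cell. In DKO-severe it was found in 0 of 457 cells, where the limit set by 3 counts would be 0.656% of cells with a UMI. The innate T cell regulator gene Zbtb16 was found in 2 WT and 9 DKO-severe cells, and Cd8a without Cd8b1 in 1 and 25.

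Some WT effector cells carried monocyte transcripts. The monocyte and macrophage list (6 genes, led by the lysozyme gene Lyz2) summed to 1636 CPM in WT and 164 in DKO-severe effector cells, against 93.5 and 199 in the other CD8 cells. Of its 777 UMIs in WT effector cells, 743 lay in the 12 cells that passed the rule through Klrg1 or Cx3cr1 with no granzyme UMI, and Lyz2 alone stood at 4841 CPM there. Cx3cr1 is a monocyte gene too. Cells with a granzyme UMI numbered 42 in WT and 448 in DKO-severe. Between the mice, values over these cells are therefore given beside those over all effector cells for some lists and genes. Where they are not given, a value is over all effector cells, those with monocyte transcripts included. The part of monocyte transcripts in the other values was not tested. The B cell list stood at 375 and 351 CPM in WT and DKO-severe effector cells, and the granulocyte list at 71.6 and 83.7, against 1991 CPM of granulocyte genes in the other DKO-severe CD8 cells. The natural killer list, which holds the myeloid genes Fcer1g and Tyrobp, stood at 514 CPM in WT and 136 in DKO-severe. It thus does not tell natural killer from monocyte transcripts. The erythroid list stood at 3249 and 933. In WT 99.5% of the erythroid UMIs lay in 1 cell, and in DKO-severe 48.8%.

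Gzma and Gzmk lie near each other on chromosome 13. Of the DKO-severe effector cells, 193 held both genes, 118 held Gzma without Gzmk and 70 held Gzmk without Gzma. Shown here are the stretches of DNA just before the starts of the 3 granzyme genes that sort the cells into classes below. Each is 250 bases before the gene's start in RefSeq (GRCm38.p6, minus strand, 5′ to 3′), at chr13:113100982-113101231 for Gzma, chr13:113180966-113181215 for Gzmk and chr14:56262335-56262584 for Gzmb. Capitals mark a match on either strand to TGTGGT, the core letters of RUNX factors, or to GGTGTG, the core letters of T-box factors such as those encoded by Tbx21 and Eomes.
Gzma promoter: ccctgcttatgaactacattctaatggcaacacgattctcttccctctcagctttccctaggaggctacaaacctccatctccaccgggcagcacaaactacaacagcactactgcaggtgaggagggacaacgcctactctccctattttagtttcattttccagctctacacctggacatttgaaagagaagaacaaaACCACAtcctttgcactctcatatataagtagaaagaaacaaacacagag
Gzmk promoter: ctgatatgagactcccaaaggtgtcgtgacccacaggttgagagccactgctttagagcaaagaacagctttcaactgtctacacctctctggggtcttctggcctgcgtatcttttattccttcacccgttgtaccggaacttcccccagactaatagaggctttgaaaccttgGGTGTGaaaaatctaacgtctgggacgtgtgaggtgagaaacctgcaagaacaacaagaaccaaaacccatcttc
Gzmb promoter: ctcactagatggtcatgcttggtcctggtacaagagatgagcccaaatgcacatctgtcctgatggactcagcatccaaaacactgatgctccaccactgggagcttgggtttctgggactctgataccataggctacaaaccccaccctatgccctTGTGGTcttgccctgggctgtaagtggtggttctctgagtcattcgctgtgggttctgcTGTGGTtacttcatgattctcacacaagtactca
The Gzma window held 1 RUNX match, on the reverse strand, and the Gzmb window held 2, while the Gzmk window held none of these and 1 T-box match. Among 32851 windows of the same length, 14.0% held the RUNX letters and 16.3% the T-box letters. A match is a description of letters and not of a bound site.

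Effector cells made up a larger share of CD8 cells in the DKO-severe mouse. Since deeper cells pass a rule on UMIs more easily, each cell was thinned at random to 3900 UMIs and the rule was applied again. On that scale 281 of 1348 DKO-severe CD8 cells were effector cells, or 20.8% (18.7 to 23.1), against 25 of 2844 WT cells, or 0.879% (0.570 to 1.29). Without thinning the shares were 27.3% (25.2 to 29.5) and 1.77% (1.33 to 2.31). With a granzyme UMI also required they were 20.3% (18.2 to 22.6) and 0.703% (0.430 to 1.08) after thinning. The intervals of the mice were far apart on each of these scales.

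The same 2-UMI rule was run on cells that should not be cytotoxic, to give the level that free RNA may reach. Among naive-state CD4 cells, 4 of 1097 WT cells (0.365%) and 17 of 681 DKO-severe cells (2.50%) passed after thinning, at median depths of 5382 and 9246 UMIs before it. Of the 197 DKO-severe B cells 0 passed, where 3 counts would set a limit of 1.52%, and the exact interval reached 1.86%. The DKO-severe share of effector cells lay above both backgrounds. With all UMIs, as used for the gene levels below, the naive-state CD4 background was higher. There 141 of 1621 DKO-severe cells (8.70%) and 17 of 1596 WT cells (1.07%) passed, against 27.3% and 1.77% of CD8 cells. After thinning, the WT share was not clearly above its own background, since the interval of the WT naive-state CD4 share (0.0994 to 0.931) took in 0.879%. In a second random draw these WT shares were 0.996% of CD8 and 0.628% of naive-state CD4 cells. Of the other CD8 cells, those with memory-type receptor genes (2 or more UMIs of Cxcr3, Il2rb and Eomes) made up 29.6% of DKO-severe CD8 cells and 314 of 2844 WT CD8 cells after thinning, and cells of a naive state 22.5% and 60.9%.

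**Figure D1:**
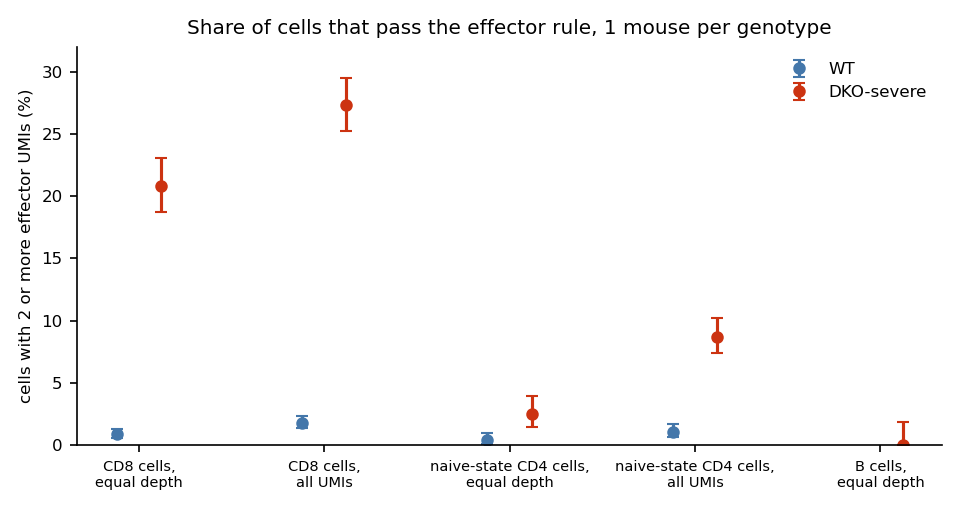
Share of cells (percent) with 2 or more UMIs of the 5 effector genes, for CD8 cells and naive-state CD4 cells at equal depth (3900 UMIs) and with all UMIs, and for B cells at equal depth; points are shares of cells of 1 mouse and lines exact 95% binomial intervals. The DKO-severe CD8 share (20.8% at equal depth, 27.3% with all UMIs) lies above the WT CD8 share (0.879% and 1.77%) and above the naive-state CD4 shares, and WT B cells are left out because 14 cells remained.

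The 5 genes of the rule were unevenly spread over the cells. Gzma led, at 3414 CPM in DKO-severe effector cells, where 311 of 457 cells held it, and at 326 CPM in WT, where 21 of 54 did. Gzmb stood at 693 CPM (364 cells) and 103 CPM (12 cells), and Gzmk at 206 CPM (263 cells) and 80.0 CPM (23 cells). In WT, 1 cell held 71.4% of all Gzmb UMIs and 31.0% of all Gzma UMIs came from 1 cell, so these WT levels rest on single cells. Klrg1, an inhibitory receptor gene, stood at 72.6 CPM in DKO-severe and 42.1 in WT, and Cx3cr1, a chemokine receptor gene, at 188 and 166. Gzma and Gzmb were found together in 256 DKO-severe and 4 WT cells, and Klrg1 with Cx3cr1 in 102 and 7.

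DKO-severe effector cells also carried more of the 5 genes at once. All 5 were detected in 67 DKO-severe cells and 1 WT cell, and a single one in 77 and 24. A sum of 10 or more effector UMIs was held by 279 DKO-severe and 5 WT cells. At the edge of the rule, 48 DKO-severe and 21 WT cells held exactly 2 effector UMIs, and 153 and 208 CD8 cells held 1 and stayed outside.

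Genes outside the rule also differed across that edge. Ccl5 stood at 4052 CPM in DKO-severe CD8 cells with 1 effector UMI, at 11052 CPM with 2 and at 22919 CPM with 10 or more. In WT the Ccl5 levels were 872, 3671 and 13197 CPM. Klrk1, which encodes the activating receptor NKG2D, went from 64.9 to 212 and 506 CPM in DKO-severe and from 25.4 to 61.1 and 107 CPM in WT. The perforin gene Prf1 stood at 63.1, 70.6 and 212 CPM in DKO-severe and at 41.5, 73.3 and 107 CPM in WT. These WT levels rest on few UMIs, 41, 10 and 5 for Klrk1 and 67, 12 and 5 for Prf1, so the WT steps are poorly resolved. Lef1, a naive-state factor, went the other way, at 506, 332 and 265 CPM in DKO-severe and 1007, 617 and 473 CPM in WT. Depth fell over the same steps in DKO-severe, from a median of 10364 UMIs to 7727 and 5372, and its part in the levels was not tested.

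**Figure D2:**
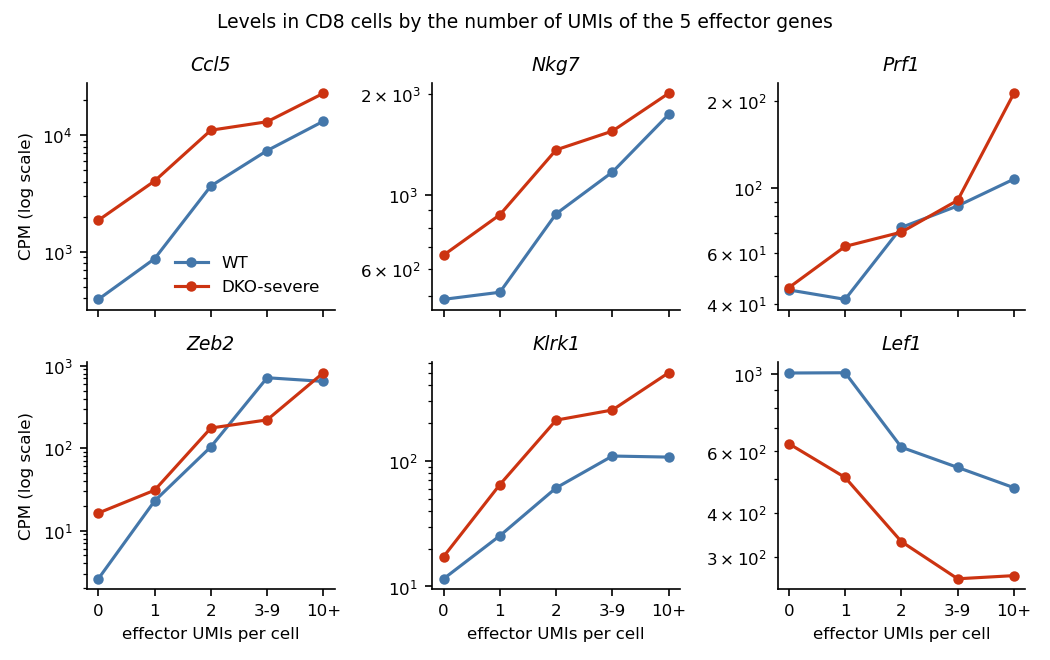
Levels (CPM, log axis) of 6 genes outside the rule in CD8 cells grouped by their summed UMIs of the 5 effector genes, for 1 WT and 1 DKO-severe mouse; each point is a sum over the cells of a group, with no error drawn. From 0 to 10 or more effector UMIs, Ccl5 goes from 391 to 13197 CPM in WT and from 1864 to 22919 CPM in DKO-severe, while Lef1 goes from 1006 to 473 CPM and from 632 to 265 CPM. The WT group with 3 to 9 effector UMIs also holds the monocyte gene Lyz2 at 2347 CPM. Its Zeb2 level is 714 CPM, against 645 CPM at 10 or more, and the part of monocyte transcripts in it was not tested.

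Effector cells were next sorted by granzyme: Gzmk alone, Gzma or Gzmb without Gzmk, both kinds, or none of the 3. With all UMIs, cells with both kinds were the most common class in DKO-severe, with 234 of 457 cells or 51.2% (46.5 to 55.9), followed by 185 Gzma/Gzmb cells or 40.5% (35.9 to 45.1) and 29 Gzmk cells or 6.35% (4.29 to 8.99). In WT the classes were more even, with 19 Gzma/Gzmb, 13 Gzmk and 10 cells of both kinds. After thinning, the Gzmk class held 13 of 281 DKO-severe effector cells, or 4.63% (2.49 to 7.78), and 4 of 25 WT effector cells, or 16% (4.54 to 36.1). These intervals overlap. In a second random draw at that depth the shares were 5.65% (3.27 to 9.02) and 25% (10.7 to 44.9), and with all UMIs 6.35% and 24.1% (13.5 to 37.6), which do not overlap, so the separation of the mice turned on the draw. The leading DKO-severe class turned on it too, with 52.0% of cells in the class of both kinds and 40.9% in the Gzma/Gzmb class in the first draw, and 44.5% and 48.1% in the second. A cell counts as Gzmk alone only while no Gzma or Gzmb UMI is seen, and Gzmk cells held fewer effector UMIs, with a median of 4 in DKO-severe against 8 in Gzma/Gzmb cells and 37 in cells with both.

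**Figure D3:**
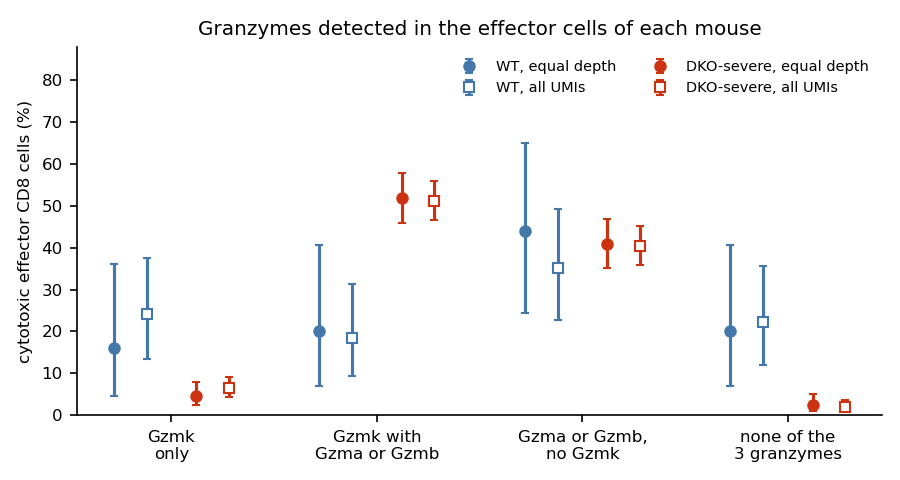
Share of effector cells (percent) in each granzyme class in the WT and the DKO-severe mouse; filled points are at equal depth (25 WT and 281 DKO-severe cells), open squares use all UMIs (54 and 457 cells), and lines are exact 95% binomial intervals. In the draw shown, cells with both kinds of granzyme are 52.0% in DKO-severe, and Gzmk cells are 4.63% there and 16% in WT, whereas in a second draw these were 44.5%, 5.65% and 25%.

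Between the mice, several killer receptor and chemokine genes, among them Klre1, Klrk1, Klrc1 and Ccl5, were higher in DKO-severe effector cells, and the naive-state genes Tcf7 and Bach2 were lower. UMIs were summed over the effector cells of each mouse, scaled to CPM and compared as a log2 ratio of DKO-severe over WT. The 3337 genes with a mean of 50 CPM or more and 30 or more UMIs in all entered, and a gene was counted as higher or lower past 2-fold. Of these, 62 genes (1.86%) were higher and 61 (1.83%) lower, with a median log2 ratio of 0.01. Over cells with a granzyme UMI 3286 genes entered, of which 64 (1.95%) were higher and 39 (1.19%) lower. Exactly 2 effector UMIs were held by 21 of 54 WT and 48 of 457 DKO-severe effector cells. The WT share was not clearly above its background after thinning, and with all UMIs 8.70% of DKO-severe naive-state CD4 cells passed the rule. The part of background cells of either mouse in these ratios was not tested.

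Of the granule and killing list, 3 of 12 entered genes were higher and 0 lower, with a median log2 ratio of 0.76, and in cells with a granzyme UMI 2 were higher (median 0.68). Fasl, the ligand that triggers the death receptor Fas, went from 23.2 CPM in WT to 82.6 in DKO-severe, a log2 ratio of 1.83 (0.97 to 2.85). Rab27a, needed to dock granules at the membrane, went from 44.2 to 124 CPM (1.49, 0.86 to 2.19). The granzyme inhibitor gene Serpinb6b (40.0 to 92.6 CPM, 1.21) was higher by less in cells with a granzyme UMI (0.86). Prf1 stood at 84.2 and 155 CPM, a log2 ratio of 0.88 (0.42 to 1.39) that missed the 2-fold line, and Nkg7 at 1127 and 1783 CPM (0.66). Lamp1, a lysosome membrane gene, went the other way at -0.36.

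Both entered genes of the cytokine and chemokine list were higher. Ccl5 went from 6675 to 18266 CPM, a log2 ratio of 1.45 (1.40 to 1.50), and to 1.14 over cells with a granzyme UMI, where WT stood at 8398 CPM. Ccl4, a chemokine gene of activated T cells, went from 101 to 319 CPM (1.66, 1.24 to 2.11). The interferon-γ gene Ifng stood at 25.3 CPM in WT from 12 UMIs and at 74.0 CPM in DKO-severe from 259 UMIs, under the level needed to enter. Tnf, likewise under that level, stood at 33.7 and 16.6 CPM.

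Of the killer lectin and natural killer receptors, 4 of 8 entered genes were higher and 0 lower, at a median log2 ratio of 0.94, as were 4 of 8 also over cells with a granzyme UMI (median 0.85). Klre1, a receptor gene shared with natural killer cells, went from 40.0 to 227 CPM, a log2 ratio of 2.51 (1.85 to 3.25). Klrk1 went from 92.7 to 388 CPM (2.07, 1.63 to 2.53), and Klrc1, which encodes the inhibitory receptor NKG2A, from 56.9 to 215 CPM (1.92, 1.37 to 2.53). Over cells with a granzyme UMI the log2 ratios were 2.09 for Klre1, 1.77 for Klrk1 and 1.84 for Klrc1. Klrc2, its activating relative, was higher by 1.24, while Klrd1, the partner chain of both, was higher by 0.64 and short of 2-fold. Cd226, an adhesion receptor gene of killer cells, stood at 369 CPM in WT and 278 in DKO-severe (-0.41). Klre1 (chr6:129577905-129585827), Klrk1 (chr6:129610323-129623864) and Klrc1 (chr6:129666015-129678973) lie close together in the natural killer gene complex in mm10, with Klrd1 and Klrc2 between them.

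Of the effector transcription factors, 4 of 10 entered genes were higher (median 0.77), and 2 of 9 over cells with a granzyme UMI (median 0.69). Bhlhe40, a regulator of cytokine output, went from 14.7 to 89.7 CPM, a log2 ratio of 2.61 (1.55 to 3.93), and Rora from 48.4 to 117 CPM (1.27). Id2, which favours effector over memory fate, went from 291 to 629 CPM (1.11, 0.86 to 1.37), and Batf from 33.7 to 70.0 CPM (1.06), but over cells with a granzyme UMI these were 0.89 and 0.94, and Bhlhe40 fell under the level to enter with 2 WT UMIs. Tbx21, which encodes T-bet, stood at 90.6 and 153 CPM (0.76), Eomes at 77.9 and 85.2 CPM (0.13, and -0.28 over cells with a granzyme UMI) and Zeb2, a factor of terminal effectors, at 497 and 548 CPM (0.14). Zeb2 is a monocyte gene as well, and over cells with a granzyme UMI it stood at 343 and 555 CPM (0.69).

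Of the naive and memory list, 0 of 11 entered genes were higher and 5 lower (median -0.56), and 2 of 10 were lower over cells with a granzyme UMI (median -0.61). Ccr7 went from 84.2 to 16.9 CPM (-2.32), Tcf7 from 329 to 141 CPM (-1.22, -1.49 to -0.96) and Bach2, a repressor of the effector programme, from 438 to 165 CPM (-1.41). Foxp1, a quiescence factor, went from 1175 to 551 CPM (-1.09), and Lef1 from 560.2 to 272 CPM (-1.04). Over cells with a granzyme UMI, Foxp1 stood at -0.89, Lef1 at -0.74 and Tcf7 at -1.12, and Ccr7 (-2.13) was under the level to enter. Not all naive-state genes followed, since the interleukin-7 receptor gene Il7r stood at 444 and 568 CPM (0.35) and Klf2 at 562 and 690.1 CPM (0.30).

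Of the homing list, 1 of 11 entered genes was higher and 0 lower (median 0.20, and -0.24 without cells holding other cell types' markers). That gene was Itga1, which encodes the collagen-binding integrin α1 of tissue T cells, at 10.5 CPM in WT and 99.4 in DKO-severe (3.24, 2.00 to 4.87). Ccr2 stood at 105 and 156 CPM (0.56), and at 60.5 and 159 CPM (1.39) over cells with a granzyme UMI. The integrin gene Itga4 stood at 863 and 888 CPM (0.04). Of the activation list 3 of 12 were higher (median 0.40): Ly6c2 (543 to 1211 CPM, 1.16), Ly6a (162 to 370.3 CPM, 1.19) and Il18rap, an interleukin-18 receptor chain gene (109.5 to 255 CPM, 1.22). Over cells with a granzyme UMI Ly6c2 (0.98) and Ly6a (0.88) fell short of 2-fold and Il18rap did not (1.34).

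Lists of exhaustion, cell cycle, interferon and DNA methylation genes held no entered gene past 2-fold between the mice over all effector cells. Both entered inhibitory genes were near equal, with Tox, a factor of chronically stimulated cells, at 497 and 411 CPM (-0.27) and Ctla4 at 50.5 and 62.0 CPM (0.30). The cell cycle list had 4 entered genes (median 0.41, but -0.48 after thinning and -0.022 with 3 effector UMIs required) and the proliferation gene Mki67 appeared in 9.26% (WT) and 10.1% (DKO-severe) of effector cells. The interferon-stimulated list had 6 entered genes at a median of -0.05, with Isg15 at -0.70 (over cells with a granzyme UMI it stood at 158 and 79.0 CPM and was the 1 gene of these lists past 2-fold, with 31.7% of its UMIs in all WT effector cells from 1 cell), and the TET and DNMT list 3 at a median of -0.11.

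Outside the lists, the highest log2 ratios included Itga1, the heat shock gene Hsph1 (12.6 to 92.9 CPM, 2.88), Chn2 (12.6 to 91.7 CPM, 2.86), the sulfotransferase gene Chst11 (50.5 to 235 CPM, 2.22), Rgs1, a brake on chemokine receptor signals (25.3 to 105 CPM, 2.06), and the glucocorticoid-response gene Fkbp5 (35.8 to 148 CPM, 2.04). All of these but Chst11 stood under 50 CPM in WT, where levels were poorly resolved, so the sizes of these ratios are uncertain. Among the lowest were the quiescence-linked gene Dapl1 (238 to 35.4 CPM, -2.75) and the cytoskeletal gene Actn1 (133 to 26.3 CPM, -2.34), which stood at -2.34 and -2.21 over cells with a granzyme UMI. The myeloid genes Fcer1g (-2.86), Tyrobp (-2.65), Ifitm3 (-2.62) and Lyn (-2.00) were also among the lowest over all effector cells. Over cells with a granzyme UMI they were under the level to enter and stood at -0.18, -0.58, 1.54 and 1.64. The direction thus turned for Ifitm3, with 4 WT UMIs left, and for Lyn (0.33 to 5.30), with 2.

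**Figure D4:**
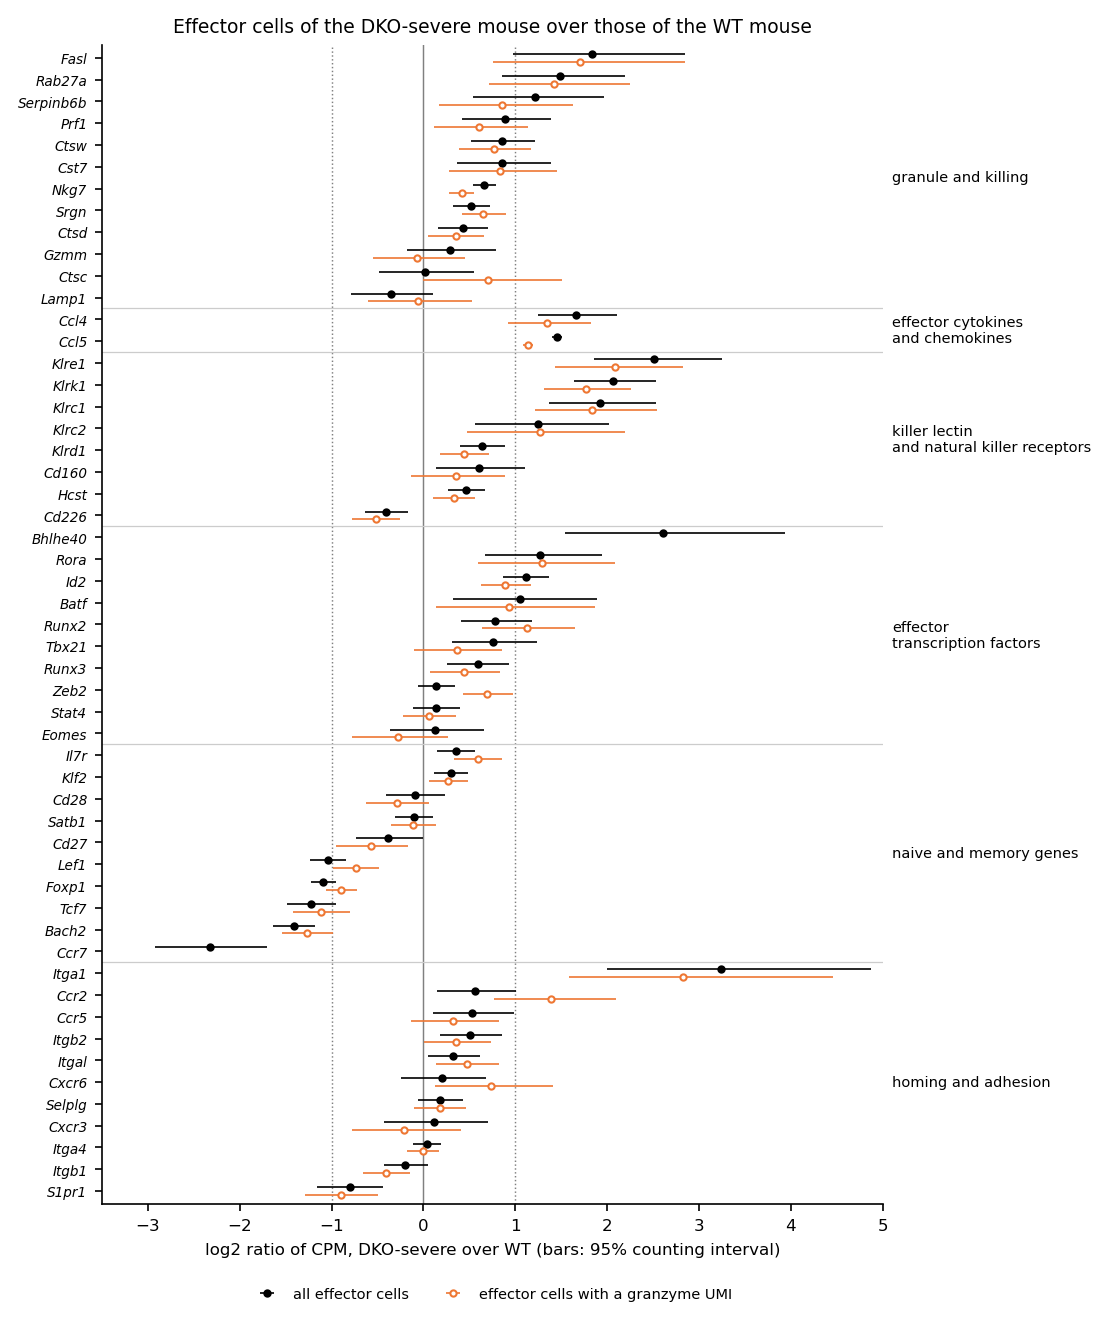
Log2 ratio of DKO-severe over WT (summed UMIs, CPM) for entered list genes in effector cells; points are single genes of 1 mouse each, filled over all effector cells and open over cells with a granzyme UMI (drawn where the gene entered), lines are exact 95% counting intervals, and dotted lines mark 2-fold. Klre1 (2.51), Klrk1 (2.07) and Klrc1 (1.92) lie to the right of the 2-fold line on both scales, and Ccr7 (-2.32), Bach2 (-1.41) and Tcf7 (-1.22) to the left.

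Fewer genes lay past 2-fold between the mice in the memory-type CD8 cells outside the rule. Of 2939 genes entered there, 17 (0.578%) were higher in DKO-severe and 8 (0.272%) lower, with a median of -0.04. Of the killer receptor list 0 of 3 entered genes were past 2-fold (median 0.16), of the granule list 0 of 10 (median 0.25) and of the transcription factors 0 of 5 (median 0.25), and 1 of 12 naive and memory genes was lower. Ccl5 was higher there too, at 1053 CPM in WT and 2535 in DKO-severe (1.27). Whether these differences were smaller than in effector cells was not tested, and the WT effector values rest on 54 cells.

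Against the other CD8 cells of the same mouse, effector cells held more transcripts of adhesion genes in both mice. The rule chose the cells by linked genes, so this is a description. In DKO-severe, 122 of 3122 entered genes (3.91%) were higher in effector cells and 34 (1.09%) lower. In WT, 105 of 3183 (3.3%) were higher and 13 (0.408%) lower. The highest WT log2 ratios included the myeloid genes Fcer1g, Ifitm3, Tyrobp and Lyn, and Zeb2, a monocyte gene as well. No values over cells with a granzyme UMI are given for this contrast. The part of monocyte transcripts in its WT counts and levels was not tested. Zeb2 went from 18.2 CPM in the other DKO-severe CD8 cells to 548 in effector cells (4.91), Itga1 from 5.48 to 99.4 (4.18) and Klrk1 from 23.3 to 388 (4.06). Of the homing list 8 of 11 entered genes were higher in DKO-severe and 6 of 10 in WT, with Itga4, which pairs with β1 or β7 integrin for entry into inflamed tissue, at 179 and 888 CPM in DKO-severe and 239.7 and 863 CPM in WT.

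Of the granule list 5 of 11 entered genes were higher in DKO-severe and 3 of 9 in WT, of the killer receptors 5 of 8 and 2 of 5, and of the effector transcription factors 5 of 10 and 4 of 7. Prf1 stood at 155 CPM in DKO-severe effector cells against 47.7 in the other CD8 cells (1.70). Of the naive and memory list, 5 of 11 were lower in DKO-severe, Ccr7 (-2.49), Bach2 (-1.59) and Lef1 (-1.18) among them, and 0 of 12 in WT, where the list's median was -0.52. Zeb2 was detected in 62.3% of DKO-severe effector cells after thinning and in 2.44% of the other CD8 cells.

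Among DKO-severe effector cells, the Gzma/Gzmb and Gzmk classes differed beyond their granzymes. Klrc1, Klrk1 and Ly6c2 were higher in Gzma/Gzmb cells, and Tox and Eomes in Gzmk cells. Of 3318 entered genes, 89 (2.68%) were higher in Gzma/Gzmb cells and 95 (2.86%) lower, with a median of -0.05. In WT, where the classes had 19 and 13 cells, 81 of 1411 genes (5.74%) were higher and 47 (3.33%) lower. Cells of a class share 1 mouse, so these too are values without a test. Other cells' genes moved with the classes: in DKO-severe the B cell genes Cd79a and Cd74 stood at 0 and 20.9 CPM in Gzmk cells and at 34.9 and 269.9 in Gzma/Gzmb cells, and the haemoglobin gene Hbb-bs at 15.7 and 642. In WT, Hbb-bs stood at 10045 CPM in Gzmk cells and 5.64 in Gzma/Gzmb cells. Their part in the class values was not tested.

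Of the killer receptors, 5 of 9 entered genes were higher in DKO-severe Gzma/Gzmb cells and 0 lower (median 1.09). Klrc1 stood at 47.0 CPM in Gzmk cells, 274 in cells with both and 174 in Gzma/Gzmb cells, a log2 ratio of 1.89 (0.94 to 3.03) for Gzma/Gzmb over Gzmk. Klrk1 stood at 104, 451 and 365 CPM (1.80, 1.16 to 2.53) and Klrd1 at 235, 527 and 502 CPM (1.09). In these 3 genes cells with both kinds of granzyme lay near Gzma/Gzmb cells or above them. In WT, 0 of 4 entered killer receptors were higher and 1, Cd160, was lower (-1.32), with Klrd1 at -0.03.

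The inhibitory list went the other way, with 3 of 4 entered genes lower in DKO-severe Gzma/Gzmb cells (median -1.72). Tox stood at 1092 CPM in Gzmk cells, 509.7 in cells with both and 215 in Gzma/Gzmb cells (-2.34, -2.60 to -2.09), and at 854 and 457 CPM in the Gzmk and Gzma/Gzmb cells of WT (-0.90). Nr4a2, an early response gene of receptor signalling, stood at 131, 43.7 and 32.3 CPM (-2.02), and Ctla4 at 115, 74.3 and 42.8 CPM (-1.43). Cells with both kinds lay between the others in all 3 genes. Pdcd1, which encodes PD-1, had 17 UMIs in the 29 Gzmk cells and 9 in the 185 Gzma/Gzmb cells, too few to enter.

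Transcription factors were split, with 1 of 10 entered genes higher and 1 lower. Eomes, the T-box factor of memory CD8 cells, stood at 167 CPM in Gzmk cells, 97.3 in cells with both and 62.5 in Gzma/Gzmb cells (-1.42, -2.01 to -0.79), and in WT at 219 and 56.4 CPM (-1.96, -3.21 to -0.79). Zeb2 stood at 235, 631 and 510.1 CPM (1.12), and in WT at 208 and 344 CPM (0.73). Rab27a was the 1 of 12 granule genes past 2-fold and was lower in Gzma/Gzmb cells (-1.21), while Prf1 stood at 146, 204 and 108 CPM (-0.44). Ccl4 stood at 486, 447 and 165 CPM (-1.56), but 60 of its 93 UMIs in Gzmk cells came from 1 cell, and without the top cell of each class the log2 ratio was -0.31. Ccl5, at 19385, 24017 and 12257 CPM, was lower by less than 2-fold (-0.66), and in WT it stood at 9804 and 3991 CPM (-1.30).

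Of the activation list, 4 of 12 entered genes were higher in DKO-severe Gzma/Gzmb cells (median 0.48), led by Ly6c2, a surface protein gene of memory and effector CD8 cells, at 287, 1320.3 and 1205 CPM (2.07, 1.68 to 2.48). In WT Ly6c2 stood at 329 and 756 CPM (1.20). Il18rap was also higher (83.6, 304 and 223 CPM, 1.42), as was Satb1, a chromatin organiser gene of the naive and memory list (1.66). Itga1 was highest in the Gzma/Gzmb cells themselves (26.1, 102 and 111 CPM, 2.09). Outside the lists, Plac8 (62.7, 213 and 273 CPM, 2.12) was among the highest on the Gzma/Gzmb side. Kcnq5 ranked above Plac8 there but changed sign after thinning. Rasgef1b (303, 89.7 and 41.5 CPM, -2.87) led the Gzmk side, and Rgs1 (308, 112 and 78.3 CPM, -1.98) was among the genes named at that end.

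**Figure D5:**
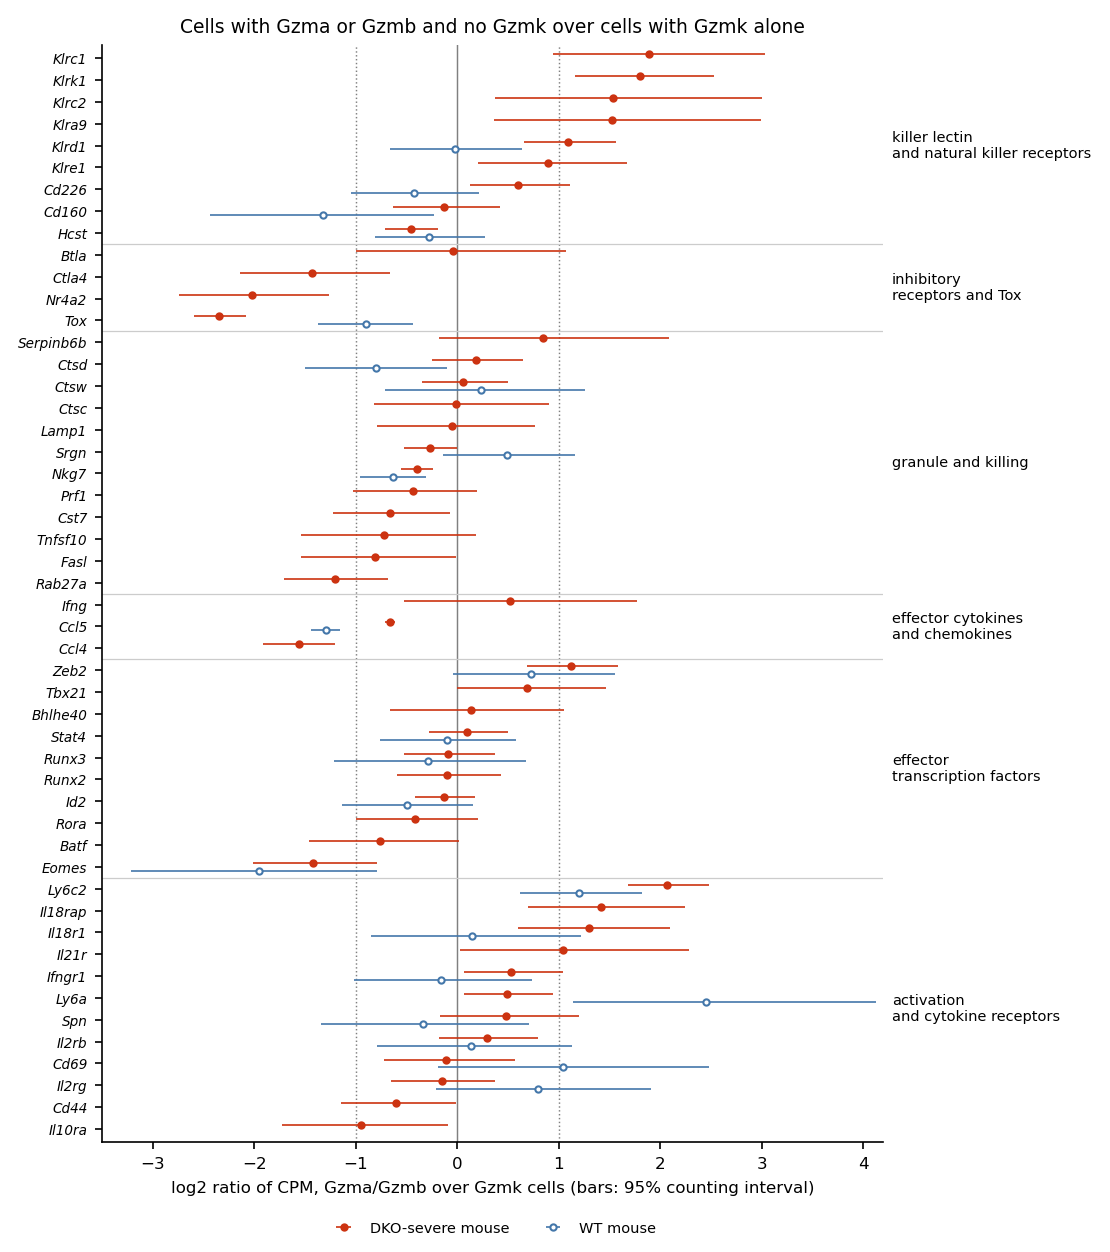
Log2 ratio of Gzma/Gzmb cells over Gzmk cells (summed UMIs, CPM) for entered list genes in the DKO-severe mouse (185 and 29 cells) and the WT mouse (19 and 13 cells); points are single genes, drawn where a gene entered, lines are exact 95% counting intervals and dotted lines mark 2-fold. Ly6c2 (2.07 in DKO-severe, 1.20 in WT) lies to the right and Eomes (-1.42 and -1.96) to the left in both mice, while Klrd1 is past 2-fold in DKO-severe (1.09) and at -0.03 in WT.

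Over both mice, 1378 genes entered the class comparison in each, and 813 had the same sign. Past 2-fold in the same direction with intervals off 0 were 9 genes: Ly6c2, Plac8, Lgals1, Stmn1, Cct6a and Srsf2 on the Gzma/Gzmb side, and Eomes, Ctla2a and Gm8369 on the Gzmk side. Lgals1, the galectin-1 gene of activated T cells, stood at 1.19 in WT and 1.03 in DKO-severe, and Ctla2a, a protease inhibitor gene, at -2.66 and -1.11. The tubulin regulator gene Stmn1, a cell cycle gene, stood at 1.46 in WT and 2.16 in DKO-severe, but 1 WT cell held 68.4% of its WT UMIs. For Lgals1, Cct6a, Plac8 and Srsf2, 1 WT cell held 41.2%, 35.6%, 25.6% and 20.4% of them. For Ly6c2, Eomes, Ctla2a and Gm8369 the top WT cell held under 20%. Past 2-fold in opposite directions were 3 genes, of which the histone genes Hist1h1b and Hist1h2ae had 96.6% and 94.1% of their WT UMIs in 1 cell and Ms4a4c had 18.8%.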

How the data were processed

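The deposited matrices, 1 per genotype, hold raw UMI counts per gene and barcode that the authors made from a 10x Genomics 3′ library with Cell Ranger 7.1.0 (file header) and mm10. The submitters' processing notes also name Seurat, and no filter beyond cell calling is given in the sources used here. Genotype was taken from the hashtag labels, and 3 WT barcodes with more of the other hashtag were left out. The effector rule, the comparison cells and the gene lists were chosen with earlier results of these data known.

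Shares were taken after each cell was thinned to 3900 UMIs (10th percentile of kept cells, rounded down), with Clopper-Pearson intervals, and shallower cells were left out, 4 WT and 81 DKO-severe effector cells among them. For gene levels, UMIs were summed over cells and scaled to CPM, counts under 3 were set to 3 in a ratio, and intervals are exact and conditional on a gene's total. Named genes were list members, genes of the rule, and the 12 highest and 12 lowest log2 ratios per contrast among entered genes whose interval left out 0 and of which no cell held over 20% of UMIs, T cell receptor segments and sex-linked genes left out. Genes that both mice shared past 2-fold, and Ncr1, Mki67 and other marker checks, were named after their values were seen. There is 1 gene of the naive and memory list whose own values are not reported here, though it counts in the list. Doublets were kept, and removing the highest 6% of Scrublet scores was an alternative. Other alternatives changed the thinning, scaling, weighting, filters, thresholds and cells with other cell types' markers. Scripts were tested on simulated data. Python 3.11.15, scanpy 1.11.5, scipy 1.17.1, numpy 2.4.6 and pandas 2.3.3 were used. The RefSeq windows are on GRCm38, the build that mm10 names.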

Additional observations from a re-analysis of the deposited data

Results flagged for a closer look

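Ms4a4c, a membrane protein gene of the MS4A family, went in opposite directions between the granzyme classes of the mice. Its log2 ratio of Gzma/Gzmb over Gzmk cells was -1.32 in WT and 1.86 in DKO-severe, and both counting intervals left out 0. The difference between the mice was not tested, since each genotype had 1 mouse.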

How the results depend on the processing

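No paired analysis was possible because each genotype had 1 mouse and no result came from a test. Of the alternative values for shares, counts and list medians, 127 stayed close, 35 moved and 2 changed sign, and of those for single genes 311, 64 and 9. Alternatives on granzyme UMIs, monocyte UMIs and single cells were chosen after the data were seen. The cause of a change was not tested.

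The WT effector share was 1.77% without thinning and 0.492% with 3 effector UMIs required. The DKO-severe share was 27.3% and 18.6% so, and 33.5% without cells that held other cell types' markers. Genes higher and lower in DKO-severe effector cells numbered 179 and 153 after thinning, 189 and 252 without cells holding other markers (11 WT cells left), 176 and 217 with a filter at 20 CPM and 425 and 367 with none. Lower genes numbered 100 without mitochondrial, ribosomal, immunoglobulin and haemoglobin genes in the CPM, 39 over cells with a granzyme UMI and 37 over cells with under 5 monocyte UMIs. For Gzma/Gzmb over Gzmk cells in DKO-severe, higher genes numbered 159 after thinning, 344 at 20 CPM and 172 on the reduced CPM. Lower genes numbered 163 with classes cut at 2 UMIs, 155 without high doublet scores, 256 at 20 CPM and 156 on the reduced CPM. The number of genes that enter can change with the setting and is not given beside these counts. They are therefore not shares and cannot be set directly against the main counts.

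The cytokine median was 0.97 thinned, 0.67 without cells holding other markers, 1.23 with 3 effector UMIs, 0.88 with WT classes weighted to the DKO-severe mix, 1.22 with a granzyme UMI and 1.25 under 5 monocyte UMIs. The interferon median was -0.61 thinned, 0.30 without cells holding other markers and -0.45 weighted. Without cells holding other markers the naive and memory median was -0.19, homing -0.24 and activation 0.0066. The cell cycle median turned to -0.48 thinned and to -0.022 with 3 effector UMIs. Under 5 monocyte UMIs, Fcer1g turned to 1.48, Tyrobp to 0.76, Ifitm3 to 0.96 and Lyn to 1.31. Ifitm3 turned to 0.17 weighted and 1.54 with a granzyme UMI, and Lyn to 0.81 and 1.64. Kcnq5, at 2.14 between the classes in DKO-severe, turned to -0.15 thinned. With 54 WT effector cells, WT genes of under about 50 CPM were poorly resolved.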

Other observations

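T cell receptor β V segments, which the β chain gene takes 1 of when it is assembled, were read where a cell showed a single one. Among 89 DKO-severe effector cells so read, 19 segments were found, with an effective number (the inverse of the summed squared shares) of 11.6. The memory-type cells of that mouse had 13.5 over 204 cells, its naive-state cells 10.5 over 34 and the WT effector cells 11.8 over 15. The effective number cannot exceed the number of cells read, so groups of such unlike size are not comparable. The most common segment was Trbv12-2, in 13 of 89 cells or 14.6% (8.01 to 23.7), followed by Trbv19 in 11 cells and Trbv16 in 10. Segments are read from 3′ ends, which lie far from the V region, so most cells gave none, and a V segment is not a clone.

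The γ chain constant gene Tcrg-C2 was found in 69 of 457 DKO-severe effector cells, with 134 UMIs or 38.3 CPM, while the WT effector cells held 1 UMI (2.11 CPM) and the DKO-severe memory-type cells 3.07 CPM. The δ chain constant gene Trdc, a defining gene of γδ T cells, was found in 3 of the DKO-severe effector cells and 1 of the WT ones.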
